A study of Mus musculus with 9 samples.

Results

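Genes of heme breakdown, iron storage and transport, and antioxidant defence were followed in injured mouse tibialis anterior (TA) muscle. They are *Hmox1*, *Blvra*, *Blvrb*, *Fth1*, *Ftl1*, *Slc40a1*, *Tfrc*, *Slc11a1*, *Nqo1* and *Gclm*, 10 of the 54532 genes in the count table, and were picked by name with earlier results of these libraries in view, among them the group levels of *Hmox1*. Their levels and differences are therefore given as a description, with no exact p-value printed for any one of them. Members that passed a threshold are counted or named only beside the number or share of all genes that did. Because earlier results entered the choice, such calls are not independent tests. RNA was sequenced in 9 libraries, 3 from each of 3 groups: young PBS (muscle of young mice given PBS), old PBS (muscle of old mice given PBS) and old rMETRNL (muscle of old mice given the recombinant cytokine Meteorin-like). Per the study's text the mice were C57/BL6J, 4 months old when young and 24 months when old. All 9 muscles had been damaged with barium chloride, so the injury is common to every group and no uninjured muscle was analysed here. PBS or rMETRNL was injected 3 times, at 0, 24 and 48 h. The labels describe a muscle cell suspension and the series text gives 4 days after injury, whereas the study's text gives muscle RNA at 8 days for the bulk libraries, so neither the time nor the material could be settled.

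As background, damaged muscle releases heme from myoglobin and from red cells in bleeding tissue. Heme oxygenase opens the heme ring and frees iron, carbon monoxide and biliverdin, biliverdin reductases turn biliverdin into bilirubin, ferritin stores the iron inside the cell and ferroportin lets it out. Macrophages that clear debris carry much of this traffic, while most other cells take up iron bound to transferrin through the transferrin receptor. The transcription factor NRF2 raises *Hmox1*, the ferritin chains, *Nqo1* and *Gclm*, and the repressor BACH1 holds several of the same genes down until heme binds it.

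Part of this system is controlled in the transcript itself. Iron regulatory proteins bind a hairpin, the iron-responsive element, when iron is scarce: in a 5′ UTR this blocks translation, and in the 3′ UTR of *Tfrc* it protects the message from decay. The hairpin was searched in GENCODE M21 transcripts (GRCm38) as CAGTG preceded by 5 bases that pair with the 5 closing bases, with an unpaired C before the stem. It was found in 4 of the 10 genes, against 294 of 21901 protein-coding genes (1.34%), and these 7 copies show how *Fth1*, *Ftl1*, *Slc40a1* and *Tfrc* share an element through which iron acts on the transcript. Control of translation through the 5′ UTR copies is not seen by a count of reads. They are printed 5′ to 3′ on the transcript strand as DNA letters, with the 6 loop bases in capitals.
*Fth1*, 5′ UTR, chr19:9982732-9982761 (+): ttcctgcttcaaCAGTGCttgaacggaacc
*Ftl1*, 5′ UTR, chr7:45459778-45459807 (-): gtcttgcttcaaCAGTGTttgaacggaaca
*Slc40a1*, 5′ UTR, chr1:45925464-45925493 (-): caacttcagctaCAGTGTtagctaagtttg
*Tfrc*, 3′ UTR, chr16:32631219-32631248 (+): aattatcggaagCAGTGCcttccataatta
*Tfrc*, 3′ UTR, chr16:32631598-32631627 (+): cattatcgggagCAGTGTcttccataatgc
*Tfrc*, 3′ UTR, chr16:32631663-32631692 (+): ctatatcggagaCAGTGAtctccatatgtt
*Tfrc*, 3′ UTR, chr16:32631710-32631739 (+): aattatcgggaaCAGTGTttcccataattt

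At the promoters, the letters TGACNNNGC, the core of the antioxidant response element that NRF2 binds, were searched on both strands from 250 bases before to 50 after the start of each gene (RefSeq, GRCm38.p6). *Blvra* and *Gclm* held a match, 2 of the 8 members in the table, and 14.0% of all 27025 genes did. The related AP-1 letters TGANTCA, which can overlap that core, were in none of the 8 and in 8.97% of all genes. *Hmox1* and *Slc40a1* were not in the promoter table. Sequence outside this window was not searched, so a gene without a match here may hold one farther from its start. Both matches lie on the strand opposite to the gene and are shown with the matched bases in capitals.
*Blvra*, chr2:127070598-127070626 (+): cacgggaattGCTCGGTCAaggctccgcc
*Gclm*, chr3:122245413-122245441 (+): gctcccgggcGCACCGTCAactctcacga

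Library totals ran from 16238700 to 22522560 counts, and the markers of muscle fibres (8 genes) summed to between 75615 and 131444 CPM, the counts scaled to a common library size, so all 9 libraries carried muscle RNA. Old PBS 3 stood apart from old PBS 2 and old PBS 4: its markers of newly formed fibres summed to 3168 CPM against 686 and 205, and its macrophage markers to 2147 CPM against 1376 and 1547. The old PBS libraries also held transcripts of brain (7 markers, sums of 51.8 to 150 CPM against at most 5.74 in the other 6 libraries) and liver (6 markers, 5.70 to 81.6 CPM against at most 0.537). The larger moves of a member's value when an old PBS library was left out are given beside it.

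Every member was well above the counting floor of 3 reads, the lowest value being 56 counts for *Nqo1* in young PBS 3 and old rMETRNL 1, and all 10 passed the filter on low counts in each comparison. The 10 genes together took 0.190% to 0.232% of the counts of a library. Per length (FPKM, computed from TMM-normalised CPM), the iron store led. *Fth1* averaged 340 over the 9 libraries (range 255 to 535) and *Ftl1* 295 (169 to 378), and these ranges overlapped. The length was that of all annotated exons of a gene joined, 3469 bases for *Fth1* and 1340 for *Ftl1*. The order per length depends on it. In CPM these genes did not overlap, at 886 to 1857 for *Fth1* and 226 to 507 for *Ftl1*. *Tfrc* followed at 67.6 FPKM (37.1 to 79.6) and *Hmox1* at 21.8 (12.9 to 35.6), each clear of the gene ranked next. The remaining 6 genes lay close together, from *Blvra* at 7.87 to *Gclm* at 3.39 FPKM, and neighbours in that order overlapped. *Nqo1* was the least stable in rank, reaching 15.9 FPKM in old PBS 4.

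**Figure D1:**
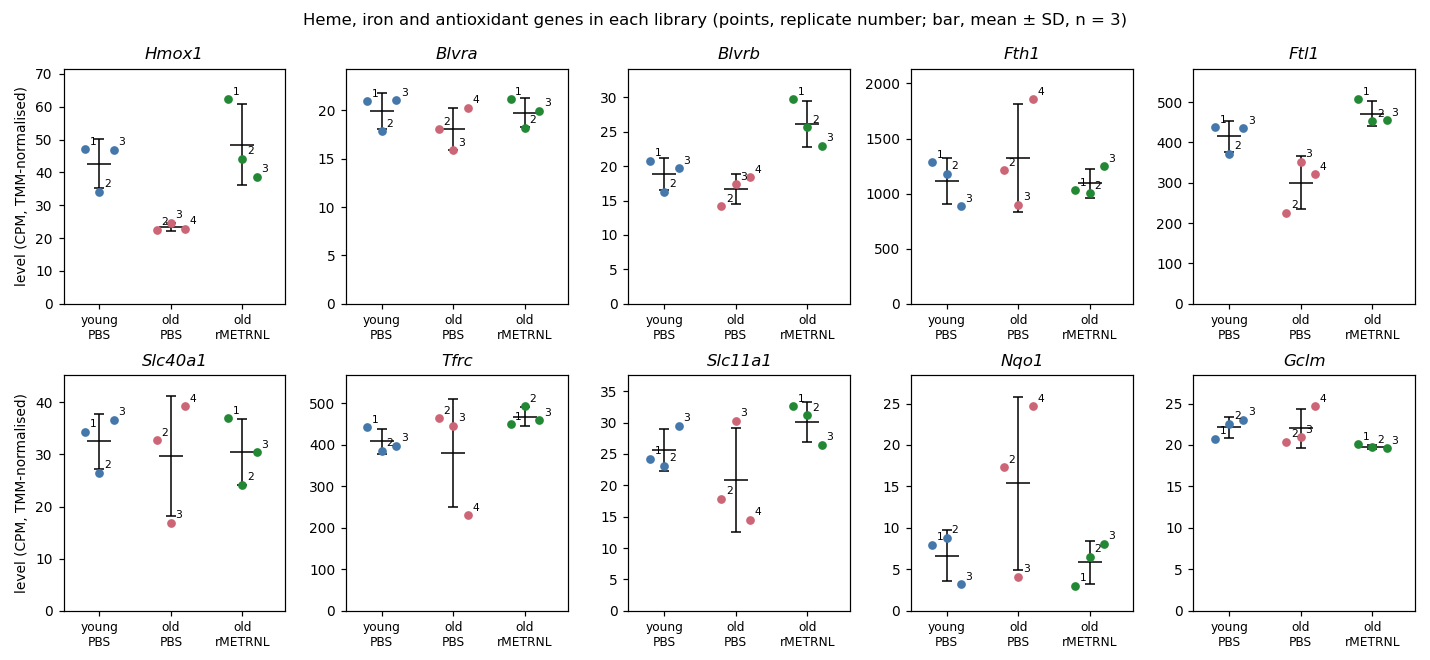
Level of each of the 10 genes (y axis, CPM after TMM normalisation, starting at 0) in every library, by group; points carry the replicate number and bars are mean ± SD, n = 3. *Hmox1* and *Ftl1* have all 3 old PBS points below every other point, while *Nqo1*, *Fth1*, *Tfrc*, *Slc11a1* and *Slc40a1* are widely scattered within old PBS.

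*Hmox1* (ENSMUSG00000005413) encodes the inducible heme oxygenase, the step that opens the ring. Its CPM were 47.0, 34.1 and 46.8 in young PBS, 22.6, 24.6 and 22.9 in old PBS, and 62.3, 44.3 and 38.7 in old rMETRNL. The 3 old PBS libraries were thus the lowest of the 9 and the closest together, and those of young PBS overlapped those of old rMETRNL. Group means were 42.7 ± 7.39 CPM in young PBS, 23.4 ± 1.11 in old PBS and 48.4 ± 12.3 in old rMETRNL (SD, n = 3). The edgeR log2 fold change was -0.86 ± 0.17 (SE) for old PBS against young PBS and 1.04 ± 0.20 for old rMETRNL against old PBS, and the latter ran from 0.81 to 1.17 with any 1 library left out. Between old rMETRNL and young PBS it was 0.18 ± 0.18, and -0.04 without old rMETRNL 1, the highest library.

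The constitutive heme oxygenase *Hmox2* served as a reference for the same reaction. It lay between 30.7 and 43.4 CPM in the 9 libraries, with log2 fold changes of 0.11 ± 0.17 for old PBS against young PBS and -0.05 ± 0.18 for old rMETRNL against old PBS (edgeR adjusted p = 0.994 and 0.963). Per length, *Hmox1* exceeded *Hmox2* 1.36 to 1.85 times in young PBS and 1.31 to 2.19 times in old rMETRNL. In old PBS the ratio was 0.864, 1.02 and 0.668, below every other library.

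Macrophages and stromal cells can both express *Hmox1*, and their markers were set beside it. The 12 macrophage markers, none at 0 in any group, summed to 1983 to 2306 CPM in young PBS, 1376 to 2147 in old PBS and 2118 to 2452 in old rMETRNL. *Hmox1* over the geometric mean of these markers was 0.417 to 0.614 in young PBS, 0.268 to 0.440 in old PBS and 0.483 to 0.669 in old rMETRNL, so that old PBS 2, at 0.440, overlapped young PBS. Old PBS 3, with macrophage markers as abundant as in the other groups, had the lowest ratio of the 9 libraries, 0.268. The 7 fibro-adipogenic markers summed to 1341 to 1677, 1213 to 1693 and 1526 to 2166 CPM in the same order of groups. Over their geometric mean *Hmox1* was 0.175 to 0.251 in old PBS and 0.277 to 0.422 in the other 6 libraries. In bulk RNA, fewer cells of a type and less RNA per cell cannot be told apart.

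**Figure D2:**
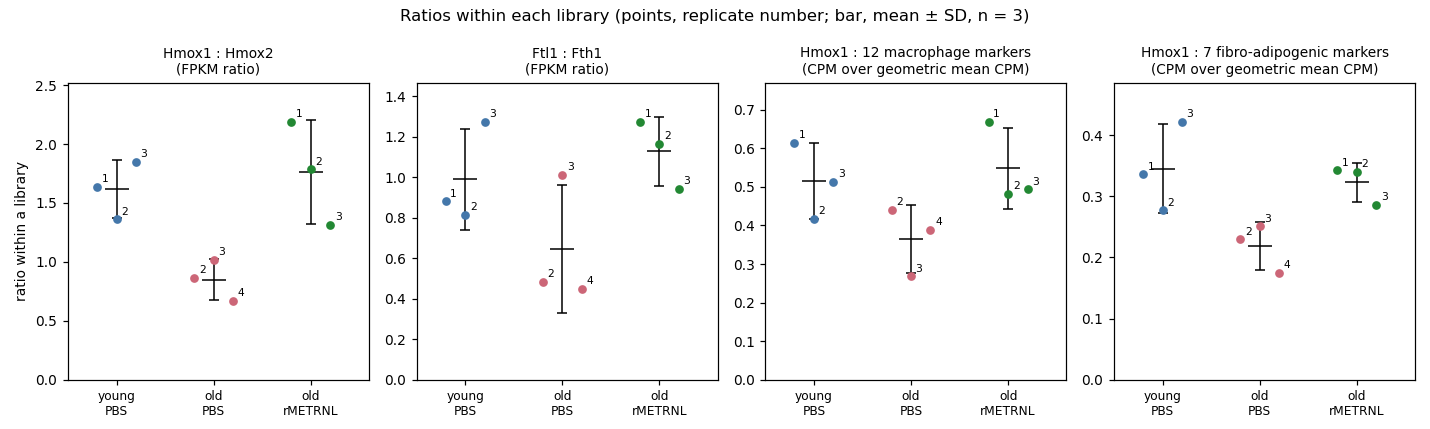
Ratios within each library by group (y axes start at 0; points carry the replicate number, bars are mean ± SD, n = 3): *Hmox1* to *Hmox2* and *Ftl1* to *Fth1* per length, and *Hmox1* CPM over the geometric mean CPM of 12 macrophage or 7 fibro-adipogenic markers. Old PBS lies below all other libraries for *Hmox1* to *Hmox2* (at most 1.02 against at least 1.31) and overlaps them for *Ftl1* to *Fth1* and for the macrophage ratio.

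The genes whose levels ran most like *Hmox1* over the 9 libraries were *Loxl2*, *Htra1*, *Hoxb4*, *Eva1b* and *Gpc3*, out of 16123 compared. Likeness was the root mean square difference of centred log2 CPM, which was 0.12 for *Loxl2*, 0.14 for *Htra1*, 0.17 for *Hoxb4* and *Eva1b*, and 0.18 for *Gpc3*, while *Hmox1* itself had an SD of 0.52 over the libraries. *Loxl2* encodes a lysyl oxidase that crosslinks collagen, *Htra1* a secreted protease, *Hoxb4* a homeobox factor and *Gpc3* a cell-surface glypican. No other member was among them. *Loxl2* stood at 66.6, 49.4 and 65.1 CPM in young PBS, 41.1, 39.5 and 33.6 in old PBS, and 85.5, 61.1 and 58.4 in old rMETRNL. As with *Hmox1*, all 3 old PBS libraries were the lowest, and old rMETRNL 1 the highest, a likeness that follows from how the gene was picked.

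**Figure D3:**
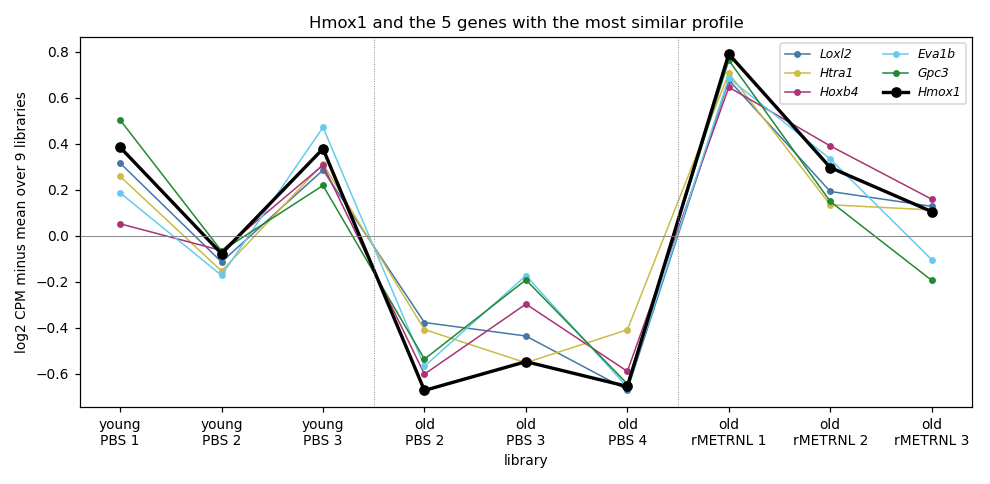
*Hmox1* (black) and the 5 genes most like it, as log2 CPM minus each gene's own mean over the 9 libraries (y axis), by library (x axis, dotted lines between groups). All 6 genes lie below their mean in the 3 old PBS libraries and peak in old rMETRNL 1.

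The biliverdin reductases act next on the pathway. *Blvra* (ENSMUSG00000001999) was even, between 15.9 and 21.1 CPM in the 9 libraries, with log2 fold changes of -0.14 ± 0.17 for old PBS against young PBS and 0.12 ± 0.17 for old rMETRNL against old PBS. *Blvrb* (ENSMUSG00000040466), which also reduces flavins, stood at 20.8, 16.3 and 19.7 CPM in young PBS, 14.2, 17.4 and 18.4 in old PBS, and 29.7, 25.7 and 23.0 in old rMETRNL. The 3 old rMETRNL libraries were therefore the 3 highest, while young PBS and old PBS overlapped. The log2 fold change of *Blvrb* was 0.64 ± 0.18 against old PBS, 0.46 ± 0.14 against young PBS, and -0.18 ± 0.18 between old PBS and young PBS. Per length, *Blvrb* was 0.692 to 0.962 times *Blvra* in the 6 PBS libraries and 1.01 to 1.24 times in old rMETRNL.

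Ferritin is a shell of heavy chains, which oxidise iron (*Fth1*), and light chains, which help to lay it down (*Ftl1*). *Ftl1* (ENSMUSG00000050708) stood at 437, 371 and 435 CPM in young PBS, 226, 352 and 321 in old PBS, and 507, 452 and 454 in old rMETRNL. The 3 groups did not overlap, with old PBS lowest and old rMETRNL highest. The log2 fold change was -0.46 ± 0.22 for old PBS against young PBS, 0.64 ± 0.22 for old rMETRNL against old PBS and 0.18 ± 0.12 for old rMETRNL against young PBS. Without old PBS 2, its lowest library, the first was -0.30 and the second 0.48. *Fth1* (ENSMUSG00000024661) did not follow: its CPM were 1285, 1181 and 886 in young PBS, 1212, 901 and 1857 in old PBS, and 1029, 1004 and 1247 in old rMETRNL. Old PBS 4 was the highest library and old PBS 3 among the lowest, so the groups overlapped and the log2 fold changes, 0.25 ± 0.31 and -0.29 ± 0.30, were within their errors. Without old PBS 4 they changed sign, to -0.07 and 0.02, and without old PBS 3 they were 0.47 and -0.51.

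The balance of the 2 chains accordingly differed among the old PBS libraries. Per length, *Ftl1* over *Fth1* was 0.881, 0.813 and 1.27 in young PBS and 1.28, 1.17 and 0.943 in old rMETRNL. It was 0.483 in old PBS 2 and 0.448 in old PBS 4 but 1.01 in old PBS 3, which lay among the other groups. The size of this ratio rests on the exon lengths used, while its relative differences between libraries do not. Reads of ferritin pseudogenes could blur such a ratio. The 14 other rows with symbols beginning Fth or Ftl held at most 0.485% of the parent gene's counts. Copies under other names were not counted, and reads shared by a gene and its copy cannot be traced in counts. The blur was therefore not tested. The red cell markers, found for 7 of the 8 listed, summed to 979 CPM in old PBS 4 and 844 in old rMETRNL 2, and to 51.9 to 247 in the remaining 7 libraries; neither of those 2 libraries stood out for *Hmox1* within its group. Their part in the *Fth1* value of old PBS 4 was not tested.

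The iron transporters were uneven within old PBS. *Tfrc* (ENSMUSG00000022797), the transferrin receptor, stood at 441, 385 and 397 CPM in young PBS, 463, 445 and 230 in old PBS, and 449, 492 and 458 in old rMETRNL. A single library, old PBS 4, was low, and the old rMETRNL libraries lay just above the young PBS ones. Its log2 fold change for old PBS against young PBS was -0.09 ± 0.28, and 0.17 without old PBS 4. For old rMETRNL against old PBS it was 0.28 ± 0.28 with all libraries, 0.46 without old PBS 2 and 0.01 without old PBS 4. Old PBS 4 also had the lowest sum of new fibre markers, 205 CPM against 664 to 1240 in young PBS and old rMETRNL. Those markers summed to 686 CPM in old PBS 2 and to 3168, the highest sum, in old PBS 3. The part of new fibres in the *Tfrc* values was not tested. *Slc40a1* (ENSMUSG00000025993), ferroportin, the iron exporter, lay at 26.5 to 36.6 CPM in young PBS, 24.1 to 36.9 in old rMETRNL, and 32.7, 16.9 and 39.3 in old PBS. Old PBS 3 was the lowest and old PBS 4 the highest library, and the log2 fold changes were -0.13 ± 0.29 and 0.03 ± 0.30. Without old PBS 3 they changed sign, to 0.16 and -0.26, and without old PBS 4 they were -0.38 and 0.27.

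*Slc11a1* (ENSMUSG00000026177), the metal pump of the macrophage phagosome, was split inside old PBS. Its CPM were 17.9, 30.3 and 14.5 there, 24.2, 23.1 and 29.5 in young PBS, and 32.6, 31.1 and 26.5 in old rMETRNL. Old PBS 2 and old PBS 4 were the lowest of the 9 libraries and old PBS 3 lay among old rMETRNL. The log2 fold change for old rMETRNL against old PBS was 0.51 ± 0.26, and became 0.87 without old PBS 3 and 0.29 without old PBS 4. For old PBS against young PBS it was -0.28 ± 0.27, and became -0.65 and -0.08 in the same way. Over the geometric mean of the macrophage markers *Slc11a1* was 0.282 to 0.324 in young PBS, 0.246 to 0.349 in old PBS and 0.337 to 0.351 in old rMETRNL, so that old PBS overlapped both other groups.

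*Nqo1* and *Gclm*, both textbook NRF2 targets, parted ways. *Nqo1* (ENSMUSG00000003849), a quinone reductase, stood at 7.94, 8.82 and 3.17 CPM in young PBS, 17.3, 4.08 and 24.7 in old PBS, and 3.01, 6.50 and 8.06 in old rMETRNL. Old PBS 2 and old PBS 4 were the highest of the 9 libraries, and old PBS 3 lay within the range of the other groups, 6.05 times below old PBS 4. The log2 fold change was 1.21 ± 0.61 for old PBS against young PBS and -1.40 ± 0.59 for old rMETRNL against old PBS. Without old PBS 3 these became 1.67 and -1.85, and without old PBS 4 they shrank to 0.69 and -0.88. The muscle fibre markers summed to 122953 and 131444 CPM in old PBS 2 and old PBS 4 and to 75615 in old PBS 3. The adipocyte markers (7 genes, listed after the data were seen) summed to 159, 349 and 331 CPM in the same order. Over their geometric mean *Nqo1* was 0.461 to 0.610 in young PBS, 0.170 to 2.26 in old PBS and 0.115 to 0.948 in old rMETRNL. The brain markers summed to 140, 150 and 51.8 CPM in old PBS 2, 4 and 3, and to at most 5.74 in the other groups. The part of any of these markers in the *Nqo1* values was not tested.

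*Gclm* (ENSMUSG00000028124), the modifier subunit of the enzyme that starts glutathione synthesis, was the steadiest member. It lay at 20.7, 22.5 and 23.1 CPM in young PBS, 20.4, 20.9 and 24.7 in old PBS, and 20.1, 19.7 and 19.6 in old rMETRNL. Old rMETRNL was the lowest group by a narrow margin, with log2 fold changes of -0.17 ± 0.15 against old PBS and -0.16 ± 0.11 against young PBS, and the difference between old PBS and young PBS was 0.00 ± 0.15.

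**Figure D4:**
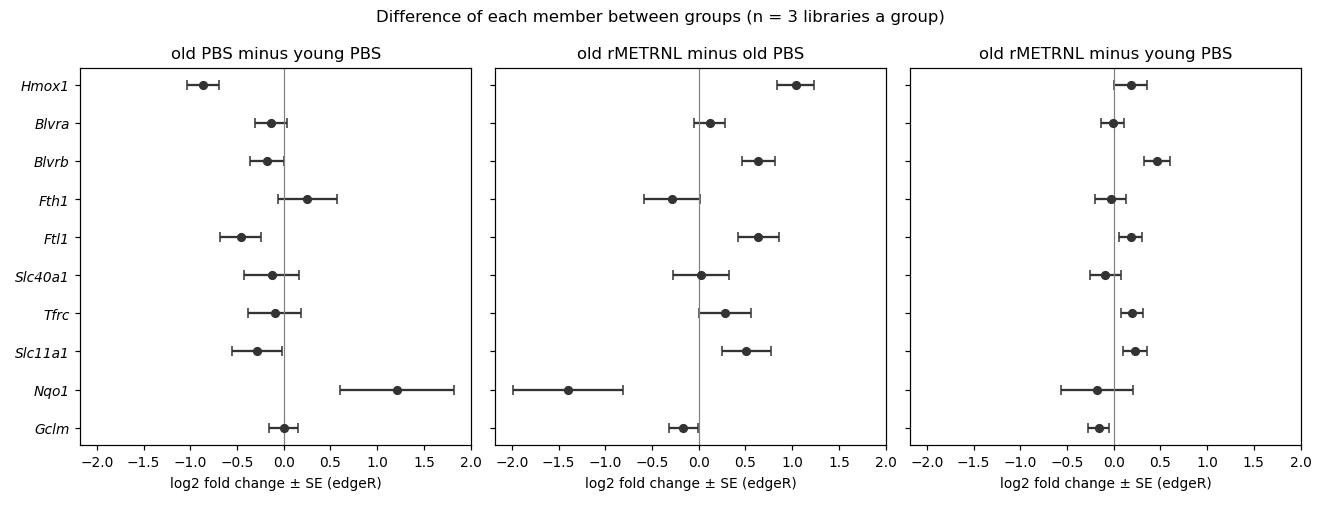
Log2 fold change (x axis, edgeR, bars ± SE, 3 libraries a group) of the 10 genes in the 3 comparisons, which share groups. *Hmox1* (-0.86, then 1.04) and *Nqo1* (1.21, then -1.40) lie farthest from 0 in the first 2 panels and *Blvrb* (0.46) in the last.

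Across comparisons, the members called were few and are read against all genes only as a description, since these contrasts were known when the genes were picked. For old PBS against young PBS, the edgeR quasi-likelihood test with Benjamini-Hochberg adjustment called 0 of the 10, as against 0.0643% of the 15560 genes tested. At an unadjusted p below 0.05 it was 1 member (*Hmox1*), against 5.91% of genes. DESeq2 also called *Hmox1* alone, against 1.42% of genes. The groups did not overlap for *Hmox1* and *Ftl1*, both lower in old PBS, and for 10.6% of all genes.

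For old rMETRNL against old PBS, edgeR again called 0 of 10, beside 0.108% of 15682 genes. The unadjusted p was below 0.05 for *Hmox1*, *Blvrb*, *Ftl1* and *Nqo1*, beside 8.07% of genes, and DESeq2 called *Hmox1*, beside 1.78%. The groups did not overlap for 4 members, with *Hmox1*, *Blvrb* and *Ftl1* higher and *Gclm* lower in old rMETRNL, beside 12.6% of genes. Leaving out old PBS 3 raised the edgeR calls among members from 0 to 4 (*Hmox1*, *Ftl1*, *Slc11a1* and *Nqo1*) and those among all genes from 17 to 1560, or 9.76% of the genes tested. In old PBS against young PBS the same step gave 1 member, *Hmox1*, and 401 genes (2.52%) in place of 10.

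For old rMETRNL against young PBS, edgeR and DESeq2 each called 0 members and 0% of genes. An unadjusted edgeR p below 0.05 was met by *Blvrb*, beside 2.41% of genes, and *Blvrb*, *Ftl1* and *Tfrc* were higher and *Gclm* lower without overlap, beside 6.79%. All 3 old PBS libraries lay below the other 6 for 2 members and for 3.18% of 16124 genes kept over the groups. The spread inside old PBS, highest over lowest library, was the widest of the 3 groups for 9 of the 10 members, the exception being *Hmox1*, and for 68.0% of all genes kept.

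The other genes of these pathways, 81 in 4 lists, were tested across all genes. edgeR called 0 of the 77 tested for old PBS against young PBS, 0 of 76 for old rMETRNL against old PBS and 0 of 73 for old rMETRNL against young PBS. An unadjusted p below 0.05 was met by 11, 7 and 2 of them, where 5.91%, 8.07% and 2.41% of all genes met it. DESeq2 called 0, 3 (*Gsta3*, *Hpx* and *Hamp*, the last of which the edgeR filter had removed) and 0, where it called 1.42%, 1.78% and 0% of all genes. Median log2 fold changes were 0.06, -0.07 and -0.01, beside 0.01, -0.01 and 0.00 over all genes. With old PBS 3 left out, edgeR called 9 of 77 (11.7%, near the 9.76% of all genes) for old rMETRNL against old PBS, all lower in old rMETRNL (*Alad*, *Bmp6*, *Cat*, *Gsta3*, *Gsta4*, *Gstm1*, *Hpx*, *Me1* and *Sod2*), and 1, the heme exporter *Flvcr1*, for old PBS against young PBS.

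In heme synthesis (11 genes), none reached an unadjusted edgeR p of 0.05 between old PBS and either of the other groups. For old rMETRNL against old PBS, 9 of the 11 had a log2 fold change below 0, from *Alad*, the enzyme that forms porphobilinogen, at -0.75 ± 0.34 (edgeR adjusted p = 0.629) to *Tspo*, a mitochondrial outer membrane protein, at 0.31 ± 0.24 (adjusted p = 0.767). *Alad* was highest in old PBS 4, at 24.1 CPM against 8.51 to 14.1 in the rest, and its old rMETRNL libraries also lay below every young PBS library. For old PBS against young PBS the list ran from *Slc25a38*, the mitochondrial glycine carrier, at -0.26 ± 0.20 to *Alad* at 0.31 ± 0.34 (adjusted p = 0.994 for both). Between old rMETRNL and young PBS, *Alad* (-0.43 ± 0.16) and *Slc25a38* (-0.35 ± 0.15) had an unadjusted edgeR p below 0.05, 2 of the 11 beside 2.41% of all genes. Neither was called after adjustment. These 2 groups did not overlap for 3 of the 11, beside 6.79% of all genes.

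Heme handling (12 genes) was led by *Hpx*, hemopexin, the plasma protein that binds free heme. Its counts were 27, 36 and 24 in old PBS, 3, 11 and 3 in young PBS, and 0, 6 and 2 in old rMETRNL. Old PBS was above every other library at a very low level, 1.79 CPM at most. The log2 fold change was 2.33 ± 0.56 for old PBS against young PBS and -3.50 ± 0.74 for old rMETRNL against old PBS; edgeR did not call it (adjusted p = 0.261 and 0.140), and DESeq2 called the second (adjusted p = 0.00234). At the other end was *Spic*, the factor of heme-recycling macrophages, at -0.59 ± 0.35 and 0.86 ± 0.37 (edgeR adjusted p = 0.979 and 0.610). The heme-sensing repressor *Bach1* lay at 41.1 to 50.9 CPM in all 9 libraries, with log2 fold changes of 0.00 ± 0.15 and -0.06 ± 0.15 (adjusted p = 0.999 and 0.936).

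Iron transport and regulation (26 genes, 23 and 22 of them tested in the comparisons with old PBS) held the hormone *Hamp*, hepcidin, which closes ferroportin and is made mainly by liver. Its counts were 9, 8 and 8 in old PBS against 0 in all 6 libraries outside that group, where 3 counts correspond to 0.137 to 0.174 CPM. It was too low for the edgeR filter, and DESeq2 called it lower in old rMETRNL. Reads of its close copy *Hamp2* may be mixed in. Like *Hpx* it is a liver product, and the 6 liver markers were seen in the same 3 libraries, each of the 6 above its level in all other libraries. Their sums were 81.6, 29.5 and 5.70 CPM in old PBS 2, 3 and 4, a wider spread than that of the *Hamp* counts. The part of liver RNA in the *Hpx* and *Hamp* counts was not tested. *Lcn2*, which binds bacterial iron carriers, ran from 0.113 to 6.33 CPM, at 2.16 ± 0.82 and -1.48 ± 0.75 (edgeR adjusted p = 0.737 and 0.664). *Cybrd1*, an iron reductase, was at -1.81 ± 0.62 and 0.81 ± 0.44 (adjusted p = 0.667 and 0.682), with 5.99 CPM in young PBS 3 and 0.439 to 1.80 elsewhere.

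The iron sensors that bind the hairpins printed above were measured too. *Ireb2* lay at 73.2 to 79.1 CPM in young PBS, 52.2 to 74.7 in old PBS and 69.4 to 80.1 in old rMETRNL, with log2 fold changes of -0.17 ± 0.18 and 0.14 ± 0.18 (edgeR adjusted p = 0.994 and 0.863). *Aco1* lay at 30.6 to 36.9, 23.8 to 30.6 and 29.2 to 37.9 CPM, at -0.33 ± 0.16 and 0.36 ± 0.17 (adjusted p = 0.901 and 0.661). Neither passed the test.

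Antioxidant and NRF2 genes (32, of which 31 were tested in both comparisons with old PBS) had a median log2 fold change of 0.11 for old PBS against young PBS, with 19 above 0, and -0.18 for old rMETRNL against old PBS, with 23 below 0. *Gsta3*, a glutathione transferase with close relatives whose reads it may share, led both ways at 1.93 ± 0.71 and -2.97 ± 0.68 (edgeR adjusted p = 0.715 and 0.179; DESeq2 called the second, adjusted p = 0.0114). Its counts were 41, 16 and 26 in old PBS, 8, 13 and 2 in young PBS, and 6, 4 and 2 in old rMETRNL. *G6pdx*, the NADPH-forming enzyme of the pentose phosphate route, was lowest and then highest at -0.49 ± 0.19 and 0.43 ± 0.24 (adjusted p = 0.765 and 0.682). Among genes chosen after their values were seen, *Me1*, the cytosolic malic enzyme and an NRF2 target, stood at 106, 131 and 57.3 CPM in young PBS, 173, 43.0 and 208 in old PBS, and 52.9, 52.5 and 110 in old rMETRNL. As for *Nqo1*, old PBS 2 and old PBS 4 were the highest libraries, and here old PBS 3 was the lowest. *Cat*, catalase, lay at 74.3 to 76.8, 96.7 to 175 and 66.5 to 78.4 CPM in the same groups, with old PBS above the rest in all 3 libraries.

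Transcripts of NRF2, of its inhibitor and of the partner of *Gclm* differed little between old PBS and the other groups. Only RNA was counted, so NRF2 protein and its activity were not measured. *Nfe2l2*, which encodes NRF2, lay at 50.6 to 58.8 CPM in the 9 libraries (log2 fold changes 0.03 ± 0.14 and -0.10 ± 0.14). *Keap1*, its inhibitor, lay at 46.9 to 71.5 CPM (0.06 ± 0.19 and -0.19 ± 0.18), and *Gclc*, the catalytic partner of *Gclm*, at 14.1 to 20.0 CPM (-0.05 ± 0.16 and -0.18 ± 0.19). The edgeR adjusted p was 0.994 for all 3 in old PBS against young PBS and 0.868, 0.802 and 0.830 in old rMETRNL against old PBS. *Keap1* was lower in old rMETRNL than in young PBS without overlap, at -0.13 ± 0.11. Those groups did not overlap, in either direction, for 6.79% of all genes.

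**Figure D5:**
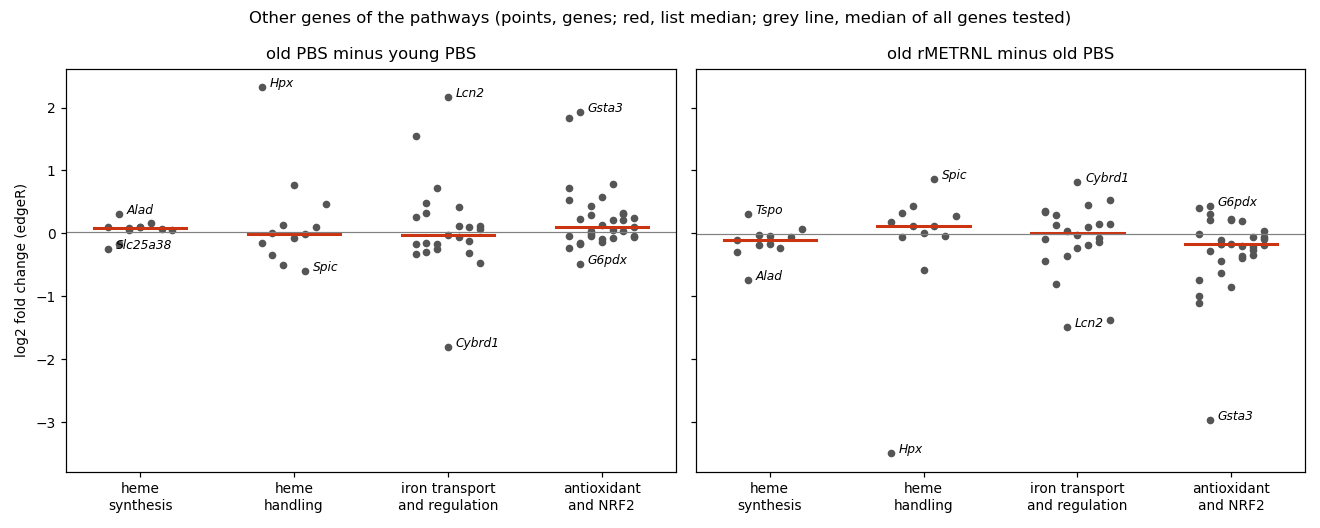
Log2 fold change (y axis, edgeR) of the pathway genes tested, by list (x axis), for old PBS minus young PBS and old rMETRNL minus old PBS; each point is a gene, red bars are list medians and the grey line is the median of all genes tested. List medians stay within 0.18 of 0, and the labelled points are the highest and lowest gene of each list, such as *Hpx* (2.33 and -3.50), *Lcn2* (2.16), *Cybrd1* (-1.81) and *Gsta3* (1.93 and -2.97).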

How the data were processed

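The 9 bulk RNA-seq libraries fell into 3 groups of 3. The authors deposited raw counts per Ensembl gene, not normalised. The submitters' processing notes name STAR, featureCounts and mm9 without roles, while the study's text names the NEBNext Ultra kit, paired-end reads and DESeq2; annotation and strand setting are not given in the sources used here. Symbols and exon lengths came from GENCODE M21 (GRCm38), which matched 54409 of 54532 identifiers. Because strand is not stated, overlapping genes cannot be told apart.

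Groups were compared on their 6 libraries with edgeR 4.0.16 (R 4.3.3): filterByExpr, TMM, glmQLFit, glmQLFTest, Benjamini-Hochberg, threshold 0.05. SE was the log2 fold change divided by the square root of F. CPM used TMM factors of all 9 libraries, and FPKM divided CPM by the joined length of all annotated exons of a gene. Levels and ratios per length between genes depend on that length. DESeq2 1.42.0 was an alternative. The fits were tested on simulated data. Alternatives were another normalisation, other count filters, a joint fit of the 9 libraries, a block for replicate numbers, and leaving out each library.

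The members and gene lists were chosen with earlier results of these data known. Named genes were all members, the highest and lowest gene of each pathway list, 7 regulators, and the 5 genes most like *Hmox1*. *Hamp*, *Me1*, *Cat*, *Flvcr1* and the genes called without old PBS 3 were named after their values were seen. The labels do not say that libraries came from separate mice, so errors measure the spread between libraries, which may be technical. Replicates differed beyond sampling noise (chi-square per degree of freedom 10.9 to 169). Counting floors cover counting error only.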

Additional observations from a re-analysis of the deposited data

How the results depend on the processing

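The number of genes called by edgeR moved with most settings. For old PBS against young PBS (10 genes) it was 354 with no filter on low counts, 3 with at least 10 counts in every library, 265 with DESeq2 and 63 with all 9 libraries in 1 fit, and 2 to 401 with a library left out. For old rMETRNL against old PBS (17 genes) it was 740, 1, 354 and 71, and 3 to 1560 with a library left out. For old rMETRNL against young PBS (0 genes) it was 132 with no filter and 0 to 1 with a library left out. Members called (0 of 10 in each comparison) became 1 for old PBS against young PBS with no filter and with DESeq2, and 2 and 1 for old rMETRNL against old PBS under the same settings. With a library left out they were 0 to 1 and 0 to 4, the highest without old PBS 3. Pathway genes called (0) became 6 with no filter and 3 with DESeq2 for old rMETRNL against old PBS, and 1 with no filter for old rMETRNL against young PBS. With a library left out they ranged over 0 to 1 and 0 to 9. Causes were not tested. Members' own fold changes were steadier. Of 180 values with all libraries kept or under the replicate block, 4 changed sign and 3 moved beyond the spread of replicates. All 3 moves came under the replicate block. Of 180 values with a library left out, 20 changed sign and 2 moved.

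The replicate block used the shared numbers, 2 and 3 with old PBS, and gave 50 calls for old PBS against young PBS and 66 for old rMETRNL against old PBS. Under it *Gclm* went from 0.00 to -0.13 in the first comparison, and *Fth1* from -0.29 to 0.08 and *Nqo1* from -1.40 to -0.25 in the second. Same-numbered libraries did not deviate together throughout (correlations of 0.114 and 0.412, -0.048 and -0.316, and 0.023, -0.051 and -0.178 in the 3 comparisons). Whether they share more than a number cannot be told from these mixed values. With 3 libraries a group, differences of low genes such as *Hamp* rest on under 10 counts a library.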
